A study of Mus musculus with 4 samples.

Results

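The let-7 microRNAs and miR-98 were described through their 5p arms, the strands that are usually loaded into Argonaute and act as guides. The 8 miRNAs (let-7a, b, c, d, f, g, i and miR-98) were taken by name from the 1091 mature miRNAs of the deposited tables, and all 8 were listed and had reads in every library. let-7e, made from a cluster with miR-99b and miR-125a, was left out of the group and is given at the end. The cells were CD4+ T cells of C57BL/6 mice, either wild type (WT) or Cbl-b-/-, without Cbl-b, a ubiquitin ligase known as a brake on T cell receptor signals. Cells of each genotype were cultured without stimulation or with anti-CD3, an antibody to the receptor complex, for 48 h. This gave 4 groups (WT unstimulated, Cbl-b-/- unstimulated, WT stimulated and Cbl-b-/- stimulated) of 1 small RNA library each, all from C57BL/6 cells. The labels call the unstimulated cells naive, and neither the age of the mice nor any pooling is stated in them.

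MicroRNAs are short RNAs that guide Argonaute proteins to messenger RNAs, mostly by pairing of bases 2 to 8, the seed, and lower the output of those messengers. The let-7 family was found as a timing regulator in the worm and is abundant in many differentiated mammalian cells, where its known targets include messengers of growth genes such as Myc, Ras genes and Hmga2. The proteins LIN28A and LIN28B bind let-7 precursors and block their maturation. In mouse T cells let-7 is known to be abundant before activation and to restrain proliferation and effector functions.

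The mature sequences are shown because all 8 share a seed, so that a read is assigned to a member only by the bases outside it. They are from RefSeq (build GRCm38.p6), which matched all 8 names, and are written 5′ to 3′ with the seed in capitals.

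mmu-let-7a-5p: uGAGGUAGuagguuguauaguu
mmu-let-7b-5p: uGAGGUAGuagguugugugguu
mmu-let-7c-5p: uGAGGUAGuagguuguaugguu
mmu-let-7d-5p: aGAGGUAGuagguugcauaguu
mmu-let-7f-5p: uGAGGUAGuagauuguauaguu
mmu-let-7g-5p: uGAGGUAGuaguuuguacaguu
mmu-let-7i-5p: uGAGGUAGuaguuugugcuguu
mmu-miR-98-5p: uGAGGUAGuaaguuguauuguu

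Each has 22 bases, and 15 positions are the same in all 8. Counted from 1 at the 5′ end, and with the base of let-7a first, let-7c differs from let-7a by A19G and let-7f by G12A. let-7b differs from let-7c by 1 base and from let-7a by A17G and A19G. let-7d carries U1A and U16C, let-7g carries G12U and U18C, and miR-98 carries G11A and A19U. let-7i is the most distant from let-7a, with G12U, A17G, U18C and A19U, and lies 2 substitutions from let-7g. Of the 28 pairs of members, 3 differ by a single base. For let-7a, b, c and f the division of reads among near copies is therefore uncertain, since no source used here gives the way reads were aligned. None of the 8 had counts identical to another listed miRNA in all 4 libraries.

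The 8 miRNAs come from 11 hairpins at 7 loci (GRCm38, RefSeq). let-7a-1, let-7f-1 and let-7d lie together on chromosome 13, at 48538179 to 48538272, 48537829 to 48537917 and 48536012 to 48536114, in exons of the noncoding gene 6720427I07Rik in GENCODE. let-7c-2 (85706603 to 85706697) and let-7b (85707319 to 85707403) lie together on chromosome 15, 621 bases apart, in exonic sequence of the noncoding gene Lncppara. let-7f-2 (151912346 to 151912428) and miR-98 (151913214 to 151913321) lie 785 bases apart on chromosome X in introns of Huwe1, which encodes a ubiquitin ligase. let-7g lies alone in an intron of Wdr82 on chromosome 9 (106178840 to 106178927), and let-7i overlaps an exon of the transcribed pseudogene D630033A02Rik on chromosome 10 (122985640 to 122985724). The second copies of let-7a and let-7c lie in introns of noncoding genes, let-7a-2 on chromosome 9 (41536716 to 41536811) and let-7c-1 in Mir99ahg on chromosome 16 (77599657 to 77599750). The letters GGAG, a motif that LIN28 proteins are known to bind, stand between the arms of 8 of the 11 hairpins and are absent from those of let-7b, let-7c-2 and miR-98. Counted anywhere in the hairpin, the motif is likewise held by 8 of the 11. Read on the RNA strand alone, and also anywhere in the hairpin, it is held by 447 of the 1005 mouse hairpins of any length in the RefSeq table (44.5%).

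The libraries held 11561693 to 15436447 counted miRNA reads, and levels are given as counts per 1000000 of these reads (CPM). With 1 library in a group there is no spread between replicates, so intervals are 95% exact Clopper-Pearson intervals that cover the counting error of reads only. A member was called different between 2 libraries when its level differed at least 2-fold, the mean of both reached 50 CPM, and the interval lay wholly on one side of equality. The smallest count behind any value of a member was 4292 reads. The 6 T cell and activation markers used to check the labels (both arms of miR-142a, miR-150-5p, miR-181a-5p, miR-155-5p and miR-21a-5p) summed to 426530 to 451667 CPM in the 4 libraries. Markers of other cells were present at lower levels and most moved with stimulation. The 2 myeloid miRNAs summed to 485 and 413 CPM in unstimulated WT and Cbl-b-/- cells and to 83.4 and 69.4 CPM in stimulated ones. The 5 erythroid miRNAs summed to 1408 and 1652 CPM without and to 390 and 915 CPM with stimulation, the 7 epithelial ones to 1082 and 1065 and to 562 and 548 CPM, and the 4 stromal ones to 166 and 171 and to 45.6 and 49.9 CPM. The 2 endothelial and megakaryocyte miRNAs went the other way, from 119 and 71.6 to 334 and 324 CPM. The liver marker miR-122-5p and the 1 listed of 3 muscle markers stayed below 1 CPM, and no list was at 0 throughout. In bulk RNA, fewer cells of a type and less RNA per cell cannot be told apart, and the part of other cells in the values of the let-7 miRNAs was not tested.

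Together the 8 miRNAs took 6.20% of the counted reads in unstimulated WT cells (95% interval 6.19 to 6.21) and 6.56% in unstimulated Cbl-b-/- cells (6.55 to 6.58). They took 5.79% (5.78 to 5.80) and 5.81% (5.79 to 5.82) in the stimulated WT and Cbl-b-/- cells. let-7f led in every library, at 26044 CPM in unstimulated WT, 27151 in unstimulated Cbl-b-/-, 23571 in stimulated WT and 23640 CPM in stimulated Cbl-b-/- cells, and ranked between 9 and 11 among all miRNAs. It alone held 40.7% to 42.0% of the family's reads. let-7a stood at 9764, 10227, 8931 and 8513 CPM in the same order, close to let-7g and let-7i in the unstimulated cells.

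The levels spanned 36.6-fold from let-7f to miR-98 in unstimulated WT cells and 32.3-fold in unstimulated Cbl-b-/- cells. Without stimulation the order was the same in both genotypes, namely let-7f, g, a, i, c, d, b and miR-98. After stimulation let-7i was second and let-7b last in both, with a span of 67.3-fold in WT and 63.7-fold in Cbl-b-/- cells. The neighbours let-7d and miR-98 changed places between the stimulated libraries, at 2159 and 2006 CPM in WT and 2035 and 2199 CPM in Cbl-b-/- cells. Sequences are ligated with different efficiency in small RNA libraries, so the order of members is one of reads, and its relation to numbers of molecules was not tested.

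**Figure D1:**
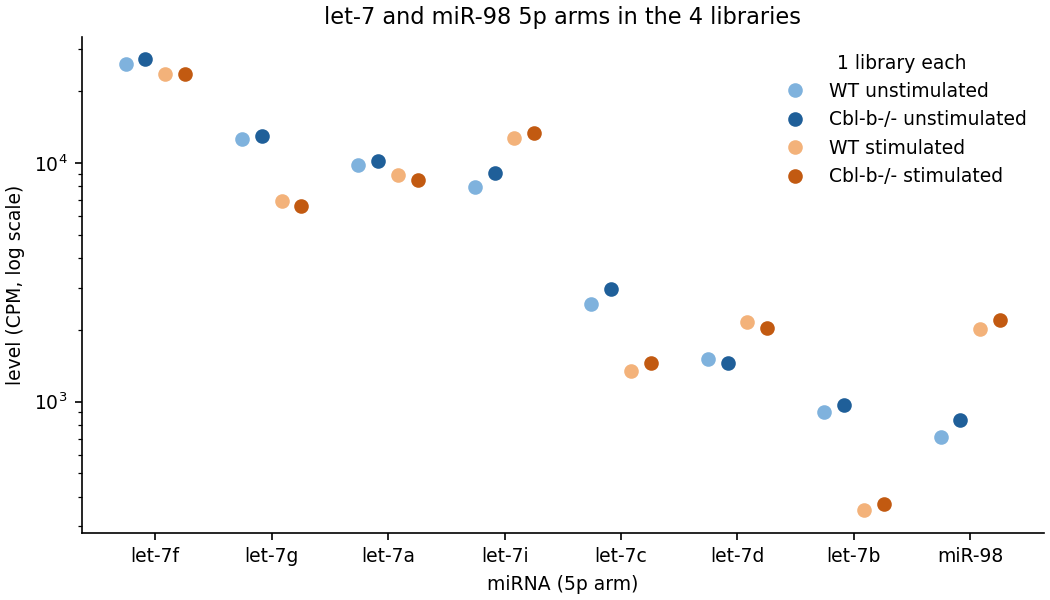
Level of each 5p arm (CPM, log axis) in the 4 libraries, 1 point per library. let-7b, c and g were lower and miR-98, let-7i and let-7d higher in both stimulated libraries by library sums, while the points of let-7f and let-7a lie close together.

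Setting stimulated beside unstimulated cells asked how the family responds to signalling through CD3. By library sums its summed level had a log2 ratio of -0.10 in WT (interval -0.10 to -0.09) and -0.18 in Cbl-b-/- cells (-0.18 to -0.17). This depended on the scaling, and TMM factors put the sum at -0.71 and -0.78 and DESeq2 size factors at -0.75 and -0.71. The members moved unequally under each scaling. miR-98 rose, with 712 CPM before and 2006 CPM after stimulation in WT, and 841 before and 2199 CPM after it in Cbl-b-/- cells. let-7b, let-7c and let-7g fell. let-7b, the lowest of them, had 904 CPM before and 350 after in WT, and 970 before and 371 after in Cbl-b-/- cells. Both stimulated libraries thus lay above both unstimulated ones for miR-98, and below both for let-7b, c and g.

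In log2 terms miR-98 stood at 1.495 in WT (2.82-fold, interval 1.46 to 1.53) and 1.39 in Cbl-b-/- cells (2.61-fold, 1.35 to 1.42), and was the 1 member called higher in each genotype. Among all miRNAs over 50 CPM, 35.5% of 220 were called higher in WT and 35.0% of 223 in Cbl-b-/- cells, so a single member in 8 lies below that background. let-7b stood at -1.37 in WT (2.58-fold lower, -1.42 to -1.32) and -1.39 in Cbl-b-/- cells (2.61-fold lower, -1.44 to -1.34), and was called lower in both. let-7c had 2564 CPM before and 1346 after in WT, and 2955 and 1448 in Cbl-b-/- cells. Its log2 ratios of -0.93 and -1.03 lie on either side of the 2-fold limit, so it was called lower in Cbl-b-/- cells alone, and the difference between these ratios was 0.10. let-7g, the second most abundant member at the start, had 12557 CPM before and 6891 after in WT, and 12939 and 6578 in Cbl-b-/- cells (log2 -0.87 and -0.98), short of the limit in both. The calls of lower levels thus came to 1 and 2 of 8, against backgrounds of 14.1% and 14.8%.

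let-7i and let-7d were higher in the stimulated libraries by less than 2-fold. let-7i had 7954 CPM before and 12662 after in WT (log2 0.67, interval 0.66 to 0.68) and 9094 and 13293 in Cbl-b-/- cells (0.55, 0.54 to 0.56). let-7d had 1507 and 2159 CPM in WT (0.52), and 1455 and 2035 CPM in Cbl-b-/- cells (0.48). let-7a had log2 ratios of -0.13 and -0.26 and let-7f of -0.14 and -0.20. The pairs of libraries behind the WT and Cbl-b-/- ratios share no library, and the 8 members fell in the same order of response in both, except that let-7a and let-7f changed places. The median over the 8 was -0.14 in WT and -0.23 in Cbl-b-/- cells, against 0.40 and 0.34 over all miRNAs above the level minimum.

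Shares within the family do not depend on how libraries are scaled. let-7i made up 12.8% of the family's reads before stimulation and 21.9% after it in WT (95% interval after it 21.77 to 21.96), and 13.9% and 22.9% in Cbl-b-/- cells. The share of miR-98 was 1.15% before and 3.46% after in WT, and 1.28% and 3.79% in Cbl-b-/- cells. For let-7d the shares were 2.43% and 3.73% in WT, and 2.22% and 3.505% in Cbl-b-/- cells. These 3 members thus took a larger part of the family in both stimulated libraries. let-7g made up 20.2% before and 11.9% after in WT (interval after it 11.83 to 11.97), and 19.7% and 11.3% in Cbl-b-/- cells. The share of let-7c was 4.14% before and 2.32% after in WT, and 4.50% and 2.49% in Cbl-b-/- cells, and that of let-7b was 1.46% and 0.605%, and 1.478% and 0.639%. The shares of let-7f (42.0% and 40.7% in WT, 41.4% and 40.7% in Cbl-b-/- cells) and let-7a (15.8% and 15.4%, 15.6% and 14.7%) moved least in proportion. Relative to the family sum, miR-98 was thus higher by 1.59 and 1.56 on the log2 scale and let-7b stood at -1.27 and -1.21.

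**Figure D2:**
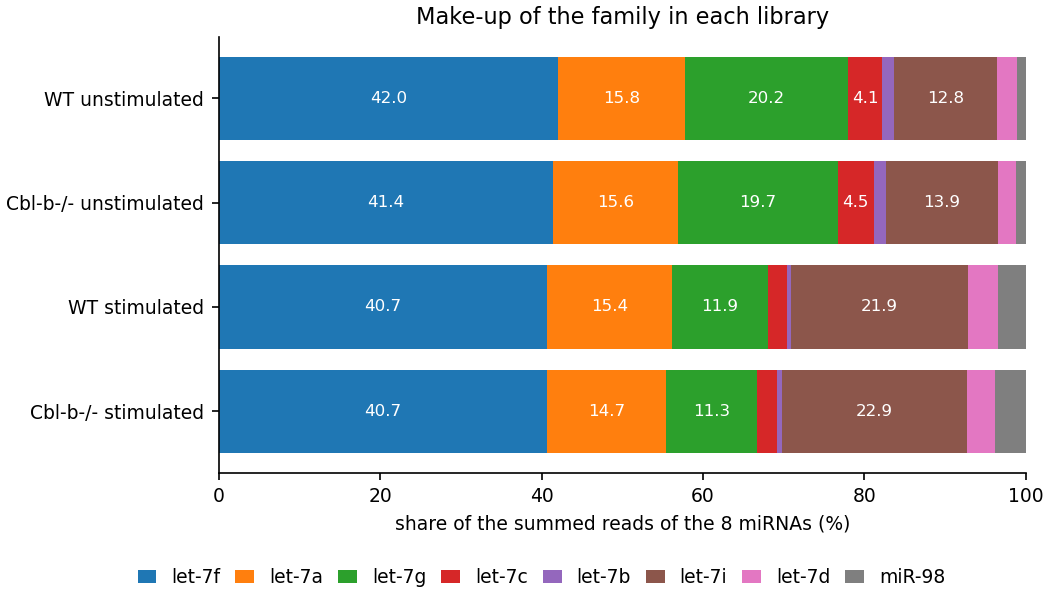
Share of each miRNA in the summed reads of the 8 members (%), 1 bar per library. let-7i is wider in the stimulated bars (21.9% and 22.9%) than in the unstimulated ones (12.8% and 13.9%), and let-7g is narrower (11.9% and 11.3% against 20.2% and 19.7%).

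By name, members of 1 locus did not all move alike, although reads of let-7a, let-7c and let-7f can also come from other loci. On chromosome 15, let-7b and let-7c were both lower after stimulation, although let-7c has another source on chromosome 16. On chromosome 13, let-7d was higher by library sums while let-7a and let-7f, which have copies elsewhere, had ratios slightly below 0. The 3p arms, the other strands of the hairpins, can be placed there for let-7d and let-7f-1, and both were higher. By library sums let-7d-3p had log2 ratios of 1.414 (WT) and 1.262 (Cbl-b-/-), and let-7f-1-3p of 1.165 and 1.206. For let-7a-1-3p they were 1.001 and 0.658, with counts identical to those of let-7c-2-3p of chromosome 15. On chromosome X, miR-98 was higher while let-7f, made there and on chromosome 13, was not. Of the 3p arms placed on chromosome X, let-7f-2-3p had log2 ratios of -0.009 (WT) and -0.054 (Cbl-b-/-) by library sums. Those of miR-98-3p were 2.416 and 2.027. Whether 3p arms follow the output of a locus was not tested. Among the hairpins without GGAG between their arms are those of let-7b and miR-98, the members with the lowest and the highest ratio. With the near copies let-7a, b, c and f summed, the log2 ratio was -0.20 in WT and -0.28 in Cbl-b-/- cells, since let-7a and let-7f hold most of these reads.

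An additive fit over the 4 libraries gave a test of the response, on the assumption that it is equal in both genotypes. It has 1 residual degree of freedom and takes the libraries of both genotypes as replicates of stimulation. With edgeR's quasi-likelihood test and Benjamini-Hochberg adjustment over 603 miRNAs, miR-98 (log2 1.44, SE 0.10, adjusted p = 4.92e-05), let-7i (0.61, SE 0.10, adjusted p = 0.00158) and let-7d (0.50, SE 0.10, adjusted p = 0.00344) were higher. let-7b (-1.38, SE 0.10, adjusted p = 7.14e-05), let-7c (-0.98, SE 0.10, adjusted p = 0.000212) and let-7g (-0.92, SE 0.10, adjusted p = 0.000253) were lower by the same edgeR test. let-7a (adjusted p = 0.105) and let-7f (adjusted p = 0.142) did not pass it. Of all miRNAs tested 49.6% passed as higher and 24.4% as lower, so 3 of 8 members each way do not stand out in number.

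The direction of the middle members depended on the scaling. With TMM factors all log2 ratios moved by -0.61 (WT) and -0.60 (Cbl-b-/-), with DESeq2 size factors by -0.65 and -0.54, and with sums without the 10 most abundant miRNAs by -0.15 and -0.11. Relative to such a shift the distances between members stayed as given. let-7b, c and g were below 0 and miR-98 above 0 under all of these scalings, miR-98 at 0.88 in WT and 0.79 in Cbl-b-/- cells with TMM factors. let-7d came to -0.09 and -0.12 with TMM factors, and let-7i to 0.06 in WT and -0.05 in Cbl-b-/- cells. In the additive fit with TMM factors, let-7d (adjusted p = 0.277) and let-7i (adjusted p = 0.98) no longer passed edgeR's test, and let-7a (log2 -0.80, adjusted p = 0.00322) and let-7f (-0.78, adjusted p = 0.00307) passed it as lower. The 6 members past the threshold were thus 3 higher and 3 lower with library sums, and 1 higher (miR-98) and 5 lower with TMM factors, as with DESeq2. Of all miRNAs tested, 74.0% passed with library sums, 67.0% with TMM factors and 43.0% with DESeq2. let-7b, let-7c and let-7g were called lower in both genotypes, and miR-98 in neither, under TMM as well as DESeq2 factors. Of all miRNAs, 53.6% were called in either direction in WT with each of these. In Cbl-b-/- cells it was 53.4% with TMM and 53.6% with DESeq2 factors.

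**Figure D3:**
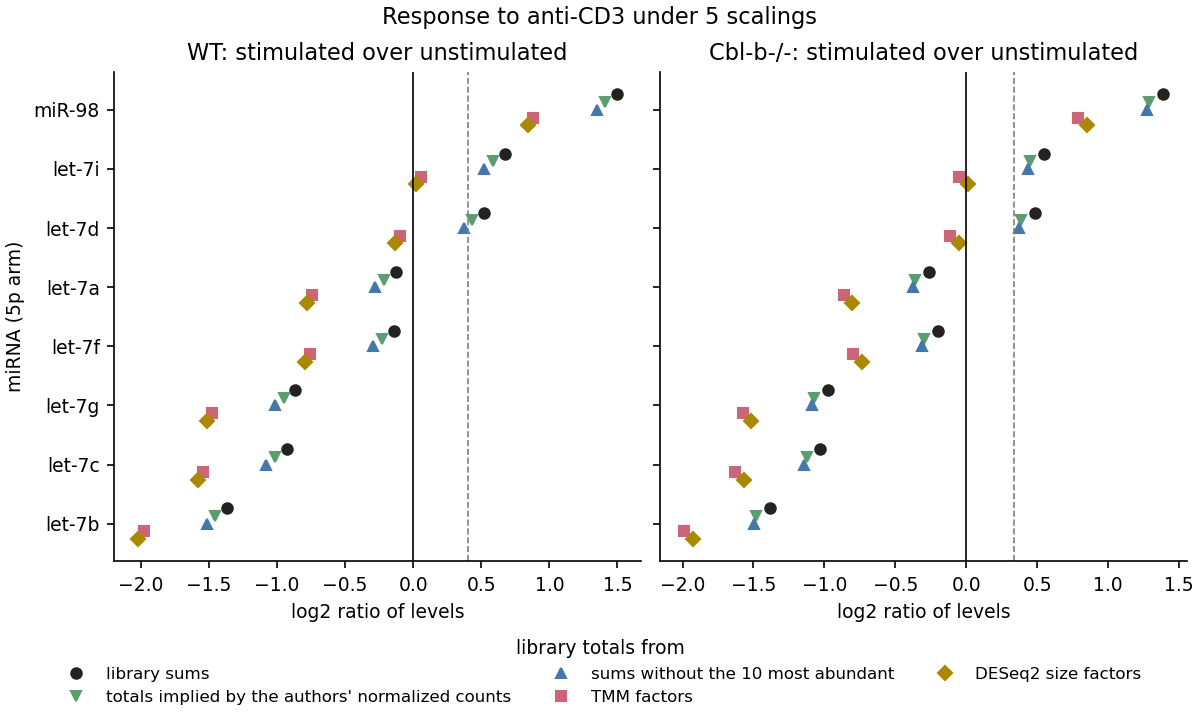
Log2 ratio of stimulated over unstimulated levels of the 8 miRNAs in WT (left) and Cbl-b-/- cells (right), with library totals from 5 scalings. The dashed line marks the median of all miRNAs above 50 CPM by library sums, 0.40 in WT and 0.34 in Cbl-b-/- cells. let-7b, c and g lie left of 0 and miR-98 right of 0 under each scaling. let-7d lies on both sides of 0 in both panels and let-7i in the Cbl-b-/- panel, while in WT let-7i stays right of 0, down to 0.02.

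The comparison of genotypes asked whether loss of Cbl-b goes with other let-7 levels. In unstimulated cells the members differed little between the libraries, with log2 ratios of Cbl-b-/- over WT from -0.05 (let-7d) to 0.24 (miR-98) and 0 of 8 called. Of all 197 miRNAs over the level minimum, 1.52% were called higher and 0.0% lower. miR-98, at 712 and 841 CPM, had an interval of 0.20 to 0.28. let-7c (2564 and 2955 CPM, log2 0.20) and let-7i (7954 and 9094 CPM, 0.19) came next. These ratios lie about as far from 0 as the robust SD of all log2 ratios, 0.20, so they do not stand out from the spread over miRNAs. The summed level had a log2 ratio of 0.08 (0.08 to 0.09), and DESeq2 size factors, which moved all ratios by -0.11 here, put it at -0.02 and let-7a, b, f and g below 0.

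In stimulated cells the log2 ratios ran from -0.08 (let-7d, at 2159 and 2035 CPM) to 0.13 (miR-98, at 2006 and 2199 CPM), and 0 of 8 were called. Of 230 miRNAs, 5.22% were called higher and 0.0% lower, with a robust SD of 0.26. The summed levels were 57917 (WT) and 58078 CPM (Cbl-b-/-), a log2 ratio of 0.00 with an interval of -0.00 to 0.01. The erythroid markers summed to 390 and 915 CPM in these libraries, and their part in these ratios was not tested. The authors' deposited log2 ratios of WT over Cbl-b-/- ran from -0.187 to 0.104 without and from -0.166 to 0.051 with stimulation for the 8. Their deposited calls compare 2 libraries by a test that no source used here names, and are not used here.

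With both states in the additive edgeR fit, the genotype term was past the threshold for 0 of 8 members, against 3.65% of 603 miRNAs, and for 0 at an unadjusted p under 0.05. DESeq2 gave 0 as well, against 3.14% of all miRNAs. The lowest adjusted p was 0.495, that of miR-98 (log2 0.19, SE 0.10). By library sums the genotype ratio was lower in stimulated than in unstimulated cells for each member, by 0.02 (let-7b) to 0.14 (let-7a) on the log2 scale, but with DESeq2 size factors it was higher for 6 of the 8, all but let-7a and let-7i. For let-7b (interval -0.09 to 0.05) and let-7d (-0.07 to 0.00) the counting interval of this difference included 0. The summed level gave -0.08 (-0.08 to -0.07), and this sign was turned by DESeq2 size factors, which gave 0.03.

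**Figure D4:**
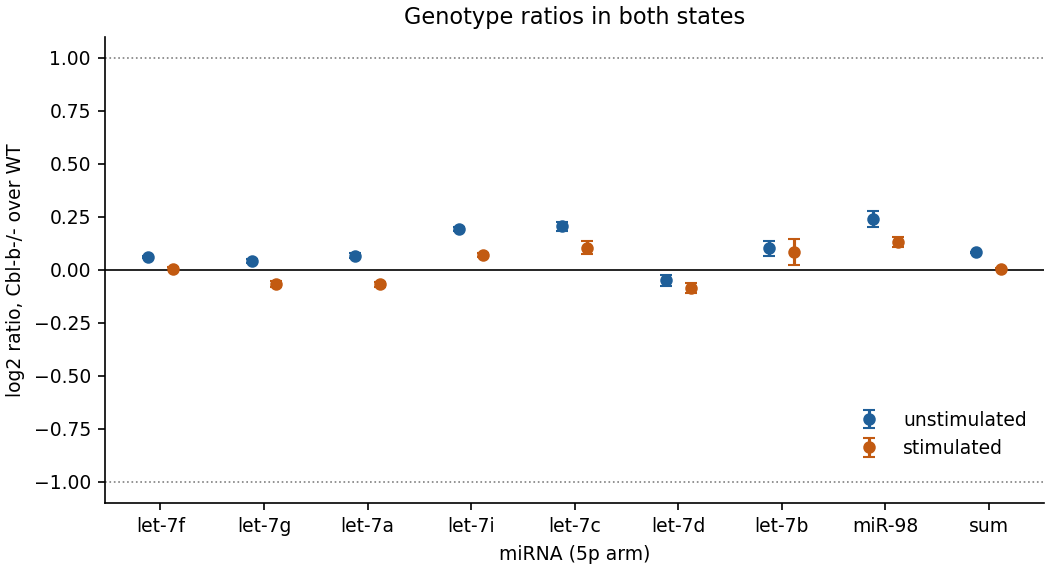
Log2 ratio of Cbl-b-/- over WT levels for each miRNA and for their sum, in unstimulated and stimulated cells. Bars are 95% counting intervals and dotted lines mark 2-fold. The points lie between -0.09 and 0.24, far inside the 2-fold limit.

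The 3p arms of the same hairpins, which are mostly degraded as passengers, were set beside the 5p arms where a 3p arm belongs to 1 member alone. let-7a and let-7c were left out, because let-7a-1-3p and let-7c-2-3p had identical counts. The 5p arm was in excess for each of the 6 members, least for let-7d, with 3.12 5p reads per 3p read in unstimulated WT cells, and most for let-7g, with 575. After stimulation the ratio of 5p to 3p reads was lower in 6 of 6 members in both genotypes. The arm ratios of other miRNAs were not computed, so whether this is particular to the family was not tested. For let-7g it was 179 after stimulation in WT (log2 change -1.68, interval -1.88 to -1.48), and in Cbl-b-/- cells the log2 change was -1.34 (-1.54 to -1.13). By library sums its 3p arm had 21.8 CPM before and 38.4 after in WT and 25.7 and 33.0 in Cbl-b-/- cells, below the level minimum and not called, and the log2 ratio of 0.36 in Cbl-b-/- cells is smaller than the shifts that TMM or DESeq2 factors make. The other changes in the log2 ratio of 5p to 3p ran from -0.92 (miR-98) to -0.43 (let-7b) in WT and from -0.78 (let-7d) to -0.43 (let-7b) in Cbl-b-/- cells. The change of let-7f, -0.67 in both genotypes, is for the summed 3p arms of both its hairpins, which differed. By library sums let-7f-1-3p had log2 ratios of 1.165 (WT) and 1.206 (Cbl-b-/-), and let-7f-2-3p of -0.009 and -0.054. let-7b-3p was lower after stimulation, as let-7b-5p was, at 62.5 and 32.7 CPM in WT. The ratios of 5p to 3p reads are within a library and do not depend on the scaling, unlike the levels of either arm. Of 10 listed 3p arms of the family, 7 were above the level minimum and 6 were called higher in WT and 4 in Cbl-b-/- cells. The shares over all miRNAs were 35.5% and 35.0%. let-7i-3p (32.9 and 96.3 CPM in WT) and miR-98-3p (27.1 and 145 CPM) reached the minimum only through the stimulated libraries. let-7b-3p, which was lower after stimulation, missed it. The counts therefore cannot be weighed against these shares. The 7, and the 6 in WT, include both let-7a-1-3p and let-7c-2-3p, whose counts are the same.

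**Figure D5:**
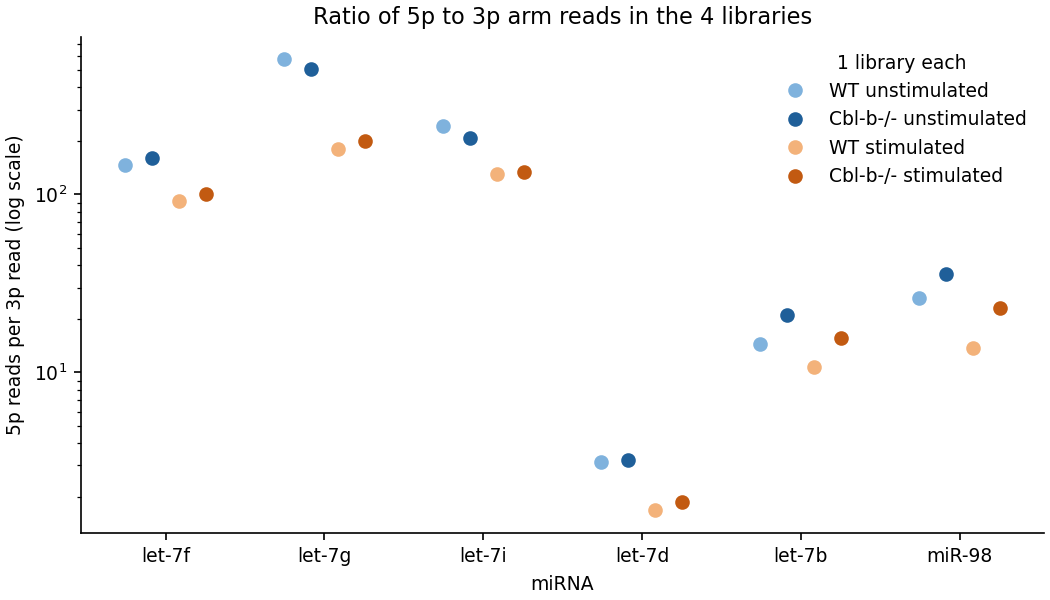
Reads of the 5p arm per read of the 3p arm (log axis) for the 6 miRNAs whose 3p arm could be assigned, 1 point per library. For let-7f the 3p arms of both hairpins were summed. Both stimulated libraries lie below the unstimulated library of the same genotype for each miRNA.

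Of the other miRNAs with the same seed in RefSeq, let-7e-5p was listed, 1 substitution (U9G) from let-7a. It stood at 96.8 and 138 CPM in unstimulated WT and Cbl-b-/- cells and at 87.0 and 122 CPM in stimulated ones, so its response (log2 -0.15 and -0.18) lay near those of let-7a and let-7f and its genotype ratio (log2 0.51 and 0.49) was above that of the 8 members in both states. let-7j, whose seed differs, matches let-7i over the first 22 bases but for G8U, with the base of let-7i first. Its counts were 19.0%, 17.5%, 15.9% and 13.5% of those of let-7i in the 4 libraries, and reads could be divided between these near copies. Among the 5 miRNAs that share transcripts with let-7a-2, let-7c-1 or let-7e (miR-99a, miR-100, miR-125b, miR-99b and miR-125a), 2 were above the level minimum in WT and 4 in Cbl-b-/- cells. After stimulation 0 and 2 of these were called lower, against 14.1% and 14.8% of all miRNAs, and 0 higher, with median log2 ratios of -0.78 and -0.97. The 2 called were miR-99a-5p (-1.675) and miR-125b-5p (-1.172). In WT these had log2 ratios of -2.374 (153 and 25 reads) and -1.255 (124 and 44 reads), below the level minimum. The calls and medians of the genotypes thus cover different miRNAs and cannot be compared. In unstimulated cells miR-99a-5p (9.91 CPM in WT, 162 in Cbl-b-/-) and miR-125b-5p (8.03 and 129 CPM) were called higher in Cbl-b-/- cells. Their hairpins lie with those of let-7c-1 and let-7a-2. Both reached the level minimum only through the Cbl-b-/- library, where they were high. The 2 calls among 4 tested therefore cannot be weighed against the 1.52% of all miRNAs called higher. In stimulated cells miR-99a-5p had 1.91 and 50.6 CPM and miR-125b-5p 3.37 and 57.4 CPM, below the level minimum and not called. let-7c and let-7a had log2 ratios of 0.20 and 0.07 in the unstimulated libraries.

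The 5 miRNAs outside the family whose profile over the 4 libraries lay nearest to that of the summed members were miR-1198-5p, miR-32-5p, miR-652-3p, miR-16-2-3p and miR-28a-5p. Their distances were 0.04 to 0.14 in centred log2(CPM + 1) units, from among 206 miRNAs. let-7f (0.04) and let-7a (0.08) were as near, but both are part of the sum, let-7f the largest, so their nearness is partly built in. miR-98 (1.58) and let-7b (1.24), smaller parts of the sum, were farthest among the 8. miR-1198-5p, the nearest, stood at 104, 113, 101 and 99.8 CPM. The measure rests on 4 libraries and says little for profiles this flat. The miR-30 family, another large family, had log2 ratios of -1.66 to -0.05 after stimulation in WT, with a median of -0.47, and none of its 5 members was above 0 by library sums, whereas the 8 let-7 miRNAs lay on both sides of 0.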

How the data were processed

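Small RNA libraries were made from total RNA by a NEBNext kit, as the labels' protocols say. The authors deposited raw read counts per mature miRNA, 1 table for each state. Per the file headers the 2 tables also hold normalized counts (treated as a score, each library's counts being scaled by a single factor), a p-value, and the WT over Cbl-b-/- fold change with its log2. From the values, the deposited log2 fold changes of the members differ from those of the normalized counts by 0.05 in size, so another scaling entered them. Per the submitters' processing notes, cutadapt 1.7.1 and GRCm38.p5 were used. No source used here gives the aligner, the counter or the miRNA release.

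Counts were scaled by library sums. Ratios carry exact Clopper-Pearson intervals (SciPy 1.17.1), and differences between states, after adding 0.5 to each count, intervals from a normal approximation. Intervals cover counting error only, and PCR copies are not independent molecules. The additive fit (genotype and state) used edgeR 4.0.16, with filterByExpr and library sums as offsets. It was tried on simulated data in which only rare miRNAs changed, so that library sums hardly moved. That trial therefore does not bear on the choice of scaling. The SE given with it is the size of the log2 value divided by the square root of the test's F statistic. It rests on a spread partly shared over miRNAs and is not each miRNA's own measured spread. DESeq2 1.42.0 was an alternative. In the additive fit the residual is the difference in response between the WT and Cbl-b-/- libraries, and the p-values rest on it. It was not stated that the libraries of a genotype come from separate animals. The p-values may thus not measure the spread between animals of a genotype. Hosts are from GENCODE vM21. The named miRNAs were the 8 members, seed relatives, 3p arms, cluster partners, the 5 nearest profiles and the miR-30 family. Members and lists were chosen with earlier results of these data known, and let-7j was named after its values were seen.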

Additional observations from a re-analysis of the deposited data

Results flagged for a closer look

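let-7a and let-7g were singled out because the genotype ratio had opposite signs in the 2 states, with counting intervals that exclude 0 in each. For mmu-let-7a-5p the log2 ratio of Cbl-b-/- over WT was 0.07 in unstimulated and -0.07 in stimulated cells, a difference of -0.14 (95% counting interval -0.15 to -0.12). For mmu-let-7g-5p the ratios were 0.04 and -0.07, a difference of -0.11 (-0.13 to -0.09). With 1 library in each group the difference was not tested against the spread between libraries. The ratios lie well inside the robust SD over all miRNAs (0.20 and 0.26), and with DESeq2 size factors both miRNAs were below 0 in both states.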

How the results depend on the processing

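No paired analysis was possible because each group has 1 library and the labels give no replicate numbers that pair them. The additive fit does compare the states within genotype. Calls of members under stimulation in WT came to 2 with library sums (of all miRNAs, 35.5% called higher and 14.1% lower). They came to 4 with sums without the 10 most abundant miRNAs (50.2% of all miRNAs called), to 5 at a fold limit of 1.5 (68.2%) and to 0 at a fold limit of 4 (22.3%). In Cbl-b-/- cells they came to 3 with library sums (35.0% higher and 14.8% lower). They came to 4 without the 10 most abundant (51.6%), with the authors' totals (52.0%) and at the limit of 1.5 (68.2%), and to 0 at the limit of 4 (21.5%). The summed log2 ratio of the 8 after stimulation in WT was -0.71 with TMM factors, -0.75 with DESeq2 size factors, -0.25 without the 10 most abundant, -0.18 with the totals implied by the authors' normalized counts and -0.066 without let-7f. In Cbl-b-/- cells these were -0.78, -0.71, -0.29, -0.27 and -0.16. Of Cbl-b-/- over WT it was 0.028, -0.025, 0.077 (authors' totals) and 0.098 (without let-7f) in unstimulated cells, and -0.038, 0.01, 0.041 (without the 10 most abundant) and -0.012 (authors' totals) in stimulated ones. The difference between states was -0.066 with TMM factors, 0.035 with DESeq2 size factors, -0.041 without the 10 most abundant, -0.089 with the authors' totals and -0.094 without let-7f. Apart from the values without let-7f, these shifts are those of the scaling itself. The counts called for the genotype comparisons stayed 0 under all 9 alternatives. Of all miRNAs, these called 0.0% to 5.88% in unstimulated and 0.435% to 11.3% in stimulated cells. The members' log2 ratios, at most 0.24 by library sums, reached no fold limit under any alternative, so these counts could not differ. In the additive fit 6 members stayed past the threshold for stimulation. Of all miRNAs, 74.0% passed with library sums, 67.0% with TMM factors, 43.0% with DESeq2 and 41.3% without the filter. For genotype 0 members passed, against 3.65%, 0.829%, 3.14% and 2.11%. For stimulation, let-7a and let-7f took the place of let-7d and let-7i with TMM factors and DESeq2. Over all 603 miRNAs the genotype term had 22 with library sums and 5 with TMM factors. Adding let-7e moved no share of a member beyond its counting interval. Summing near copies was added after seeing the data.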
